A study of Mus musculus with 6 samples.

Results

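Transcripts of 30 genes of mitochondrial and peroxisomal fatty acid oxidation were followed in mouse bone marrow-derived macrophages treated with thiothixene or with its solvent. The genes were chosen by symbol, for their place in the carnitine shuttle, in beta-oxidation, in electron transfer or in peroxisomal oxidation, and were found by gene identifier among 56691 gene rows per library. Of the 30 genes 28 passed the expression filter that left 14856 genes for testing, and Etfb and Ppara had 0 counts in every library. The macrophages were primary cells grown from the marrow of 3 mice, named a, b and c. On day 6 of culture they received 2 µM thiothixene, an antipsychotic drug that blocks dopamine receptors, or DMSO alone, for 24 h. Each mouse gave 1 library per treatment, so 3 thiothixene libraries were set against 3 DMSO libraries from the same mice. Libraries are named here by treatment and mouse, such as DMSO-b, and the 3 values of a treatment are always given in the order of mice a, b and c. The sources used here give no strain, sex, age or genotype of the mice.

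Fatty acids enter mitochondria as carnitine esters. Carnitine palmitoyltransferase at the outer membrane makes the ester, a translocase in the inner membrane carries it, and a second transferase inside returns the acyl chain to coenzyme A. Each round of beta-oxidation then consists of dehydrogenation, hydration, a further dehydrogenation and thiolysis, and the electrons of the first step reach the respiratory chain through electron transfer flavoprotein. Peroxisomes shorten very long and branched chains by a parallel set of enzymes. The nuclear receptors PPAR-alpha and PPAR-delta are known to activate many of these genes when they bind fatty acids, and in macrophages fatty acid oxidation has been studied mainly in alternative activation and in the handling of lipid from engulfed cells.

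Hadha and Hadhb encode the alpha and beta subunits of the mitochondrial trifunctional protein, an enzyme that carries out the last 3 steps on long chains, and the stretch between them is shown because the genes start back to back on opposite strands. Hadha lies on chromosome 5 from 30118304 to 30155162 on the minus strand of GRCm38, and Hadhb lies on chromosome 5 from 30155248 to 30184593 on the plus strand. The 85 bases between the annotated starts, chr5:30155163-30155247, have a GC content of 69.4% and are given on the plus strand from RefSeq's GRCm38.p6 sequence.
Hadha and Hadhb shared interval: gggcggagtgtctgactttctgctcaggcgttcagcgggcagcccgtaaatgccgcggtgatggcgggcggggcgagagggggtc

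A RefSeq promoter, 250 bases before to 50 bases after the start on GRCm38.p6, was matched for 26 of the 30 genes. The hexamer AGGTCA, the letters nuclear receptors recognise, was searched on both strands. It was found for 4 of these 26 genes, or 15.4%, against 16.3% of 32851 mouse promoters. The first share counts genes and the second counts promoters. The direct repeat AGGTCANAGGTCA, the arrangement that PPAR and RXR recognise as a pair, was found for 0 of 26 genes, and in 0.0396% of all promoters. TCAAGGTCA, the estrogen-related receptor element, which contains the hexamer, was found for 0 of 26 genes and in 0.423% of all promoters. Both strings are so rare over all promoters that 0 of 26 could hardly come out otherwise. These counts therefore do not show that the genes lack such elements. The 4 matches are shown on the strand of the gene, with the hexamer in capitals, which reads TGACCT where the match is on the opposite strand. They lie at chr3:153944877-153944893 on the minus strand for Acadm, chr11:70015500-70015525 on the minus strand for Acadvl, chr7:140116489-140116514 on the minus strand for Echs1 and chr19:3323197-3323222 on the plus strand for Cpt1a. For Cpt1a the RefSeq start lies downstream of the gene's annotated start at 3322334, so this match lies inside the annotated gene. A match describes letters and is not a binding site.
Acadm: gTGACCTtcgggctccg
Acadvl: ggatcaccctAGGTCAggtagaatac
Echs1: cagcccgctcAGGTCAcgggtccacc
Cpt1a: gtttccttacTGACCTcctccccgca

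The libraries held 18548095 to 20264090 counts in genes with thiothixene and 10472349 to 22297520 with DMSO, where DMSO-b was the smallest. DMSO-b and DMSO-c stood apart from the other libraries, and thiothixene-a did so less in its correlations but clearly in the trend with GC content described below. Across genes, which are no independent replicates, log2 CPM (counts in genes scaled to library size) correlated at 0.981 between thiothixene-b and thiothixene-c and at 0.825 between DMSO-b and DMSO-c. Thiothixene-b, thiothixene-c and DMSO-a correlated with each other at 0.972 to 0.981, thiothixene-a with these 3 at 0.949 to 0.958, and DMSO-b and DMSO-c with them at 0.905 to 0.921. Results are therefore also given without those 3 libraries. Thiothixene-a correlated at 0.941 with DMSO-c and at 0.875 with DMSO-b. Reads not aligned made up 4.978% in thiothixene-a and 4.516% in DMSO-c, and 1.85% to 2.31% in the other libraries. DMSO-c had the most counts in genes but the fewest genes with a count, 16477. The part of these traits in the results was not tested. Macrophage markers summed to 11520 to 13170 CPM with thiothixene and 11020 to 18950 CPM with DMSO, with all 10 markers above 0 in the series. Neutrophil and granulocyte precursor markers, all 10 present and 9 tested, summed to 334.9 to 396.1 CPM with thiothixene and 365.9 to 848.4 CPM with DMSO. For erythroid cells and megakaryocytes the sums were 297.0 to 495.2 CPM with thiothixene and 343.0 to 1525 CPM with DMSO, and 4 of 8 markers were tested, with Hbb-bs and Hbb-bt among those at 0 in all 6 libraries. For stromal cells and adipocytes they were 54.33 to 285.4 CPM with thiothixene and 94.46 to 163.0 CPM with DMSO, and 4 of 9 were tested, with Lum, Plin1 and Lep at 0. Lymphocyte markers summed to at most 0.8039 CPM, with Cd3d and Ms4a1 among those at 0, and dendritic cell markers to at most 1.772 CPM. DMSO-b was the highest in the macrophage, neutrophil and erythroid sums. Log2 fold changes were above 0 for 1 of 9 tested macrophage markers, 0 of 9 neutrophil markers, 0 of 4 erythroid and megakaryocyte markers and 3 of 4 stromal and adipocyte markers, and 0 of them passed. The part of these markers in the results was not tested.

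No fatty acid oxidation gene passed the test for a difference between treatments, which at 3 libraries each does not show equal levels. Most had lower estimates with thiothixene: 21 of the 28 tested genes had a log2 fold change below 0 and 7 above 0, where 54.7% of all tested genes were below 0 and 45.3% above. The median over the 28 genes was -0.22, against -0.043 over all tested genes, and single genes ran from -0.54 for Eci2 to 0.32 for Acox3. In edgeR's quasi-likelihood test with Benjamini-Hochberg adjustment 0 of the 28 passed at 0.05, and the smallest adjusted p was 0.9998. Over all genes 0 of 14856 passed, or 0%. Before adjustment, 256 genes, or 1.72% of all, had a p under 0.05, and 0 of the 28 did. DESeq2 and limma-voom also called 0 of the 28. In bulk RNA, fewer cells of a type and less RNA per cell cannot be told apart.

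**Figure D1:**
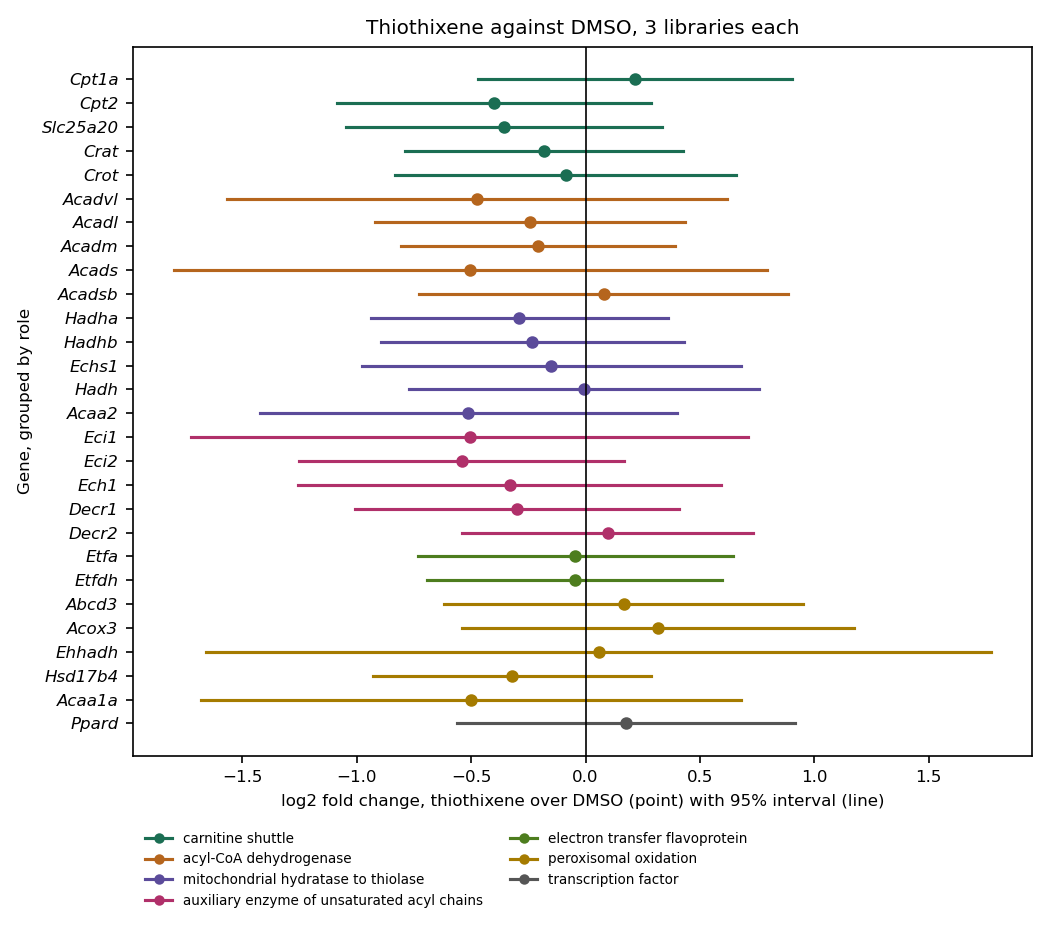
Log2 fold change of 28 fatty acid oxidation genes, thiothixene over DMSO (horizontal axis), by gene and role (vertical axis). Points are edgeR estimates from 3 libraries per treatment and lines are 95% intervals. Each line crosses 0, and the points run from -0.54 for Eci2 to 0.32 for Acox3.

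Groups did not overlap for Cpt2, Acadm and Eci2, so for 3 of 28 genes. There all 3 thiothixene libraries lay below all 3 DMSO libraries, where 2.77% of all tested genes did so, a smaller share. All 3 lay above for 0 of 28, where 3.88% of all tested genes did so. By role, the median log2 fold change was -0.18 for the carnitine shuttle, -0.24 for the acyl-CoA dehydrogenases, -0.23 for the mitochondrial hydratase to thiolase steps and -0.33 for the auxiliary enzymes of unsaturated chains, 5 genes each. It was -0.046 for the 2 tested genes of electron transfer flavoprotein and 0.057 for the 5 peroxisomal genes, and the tested transcription factor, Ppard, had 0.18. These medians are descriptions of counts taken in the same 6 libraries.

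In the carnitine shuttle 1 of 5 estimates, that of the rate-limiting enzyme, was above 0, and it rested on DMSO-b. Cpt1a, which makes the carnitine ester at the outer membrane (ENSMUSG00000024900.6, chromosome 19, 3322334 to 3385733, plus strand), measured 181, 170 and 161 CPM with thiothixene and 178, 101 and 162 CPM with DMSO. DMSO-b was low and the other 5 lay close together, so the groups overlapped. The mean was 170.6 ± 9.61 CPM under thiothixene, against 146.8 ± 40.7 CPM under DMSO (SD, n = 3 each), with a log2 fold change, the estimate, of 0.22 (SE 0.30, 95% interval -0.47 to 0.90). Without DMSO-b it was 0.006, and within mice the log2 difference was 0.022 in mouse a, 0.75 in mouse b and -0.006 in mouse c. Cpt2, the inner transferase that rebuilds acyl-CoA (ENSMUSG00000028607.17, chromosome 4, 107903981 to 107923610, minus strand), measured 20.8, 16.4 and 17.4 CPM with thiothixene and 21.4, 28.9 and 21.8 CPM with DMSO. All thiothixene values were below all DMSO values, narrowly in mouse a. The log2 fold change was -0.40 (SE 0.30, 95% interval -1.09 to 0.28), with an unadjusted p of 0.2166 in edgeR's quasi-likelihood test.

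The remaining carnitine genes had estimates below 0. Slc25a20, the carnitine-acylcarnitine translocase, measured 19.6, 23.9 and 26.2 CPM with thiothixene and 23.9, 36.1 and 29.5 CPM with DMSO. Its estimate was -0.36 (SE 0.30), and each mouse had the lower value under thiothixene. Crat, carnitine acetyltransferase, which acts on short chains, measured 79.8, 74.7 and 64.0 CPM with thiothixene and 89.6, 88.2 and 70.3 CPM with DMSO. Here too every mouse had the lower value with thiothixene, although the groups overlapped between mice (estimate -0.18, SE 0.27). Crot, the peroxisomal carnitine octanoyltransferase, had 55.9, 41.3 and 32.7 CPM with thiothixene and 49.5, 34.2 and 54.3 CPM with DMSO, with no order between the groups (-0.087, SE 0.33). Per kilobase of transcript, Cpt1a stood 4.76, 5.71 and 5.11 times above Cpt2 in the thiothixene libraries and 4.57, 1.91 and 4.07 times above it in the DMSO libraries. The ratio was lowest in DMSO-b.

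Of the 5 acyl-CoA dehydrogenases, which open each round of beta-oxidation on chains of different length, 4 had estimates below 0. Acadm, for medium chains (ENSMUSG00000062908.13, chromosome 3, 153922357 to 153944632, minus strand), was among the steadiest of the 28 genes, at 53.0, 49.6 and 53.0 CPM with thiothixene and 53.4, 69.6 and 56.7 CPM with DMSO. The groups did not overlap, but the gap in mouse a was smaller than the spread between the DMSO libraries (estimate -0.21, SE 0.26, 95% interval -0.81 to 0.39). Acadl, for long chains, measured 107, 80.7 and 65.4 CPM with thiothixene and 84.7, 114 and 100 CPM with DMSO, so mouse a ran against mice b and c (-0.24, SE 0.30).

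Acadvl and Acads were far more scattered. Acadvl, for very long chains, measured 27.0, 39.0 and 39.3 CPM with thiothixene and 43.1, 82.3 and 21.1 CPM with DMSO, and the DMSO group held both the highest and the lowest value. Its log2 fold change was -0.47 (SE 0.48). Opposite-strand exons of Dvl2 cover 42.85% of the exonic bases of Acadvl, and as the strand setting of the counting is not given, reads of the 2 genes may not be fully separated. Acads, for short chains, measured 20.7, 37.5 and 35.9 CPM with thiothixene and 34.9, 82.9 and 16.0 CPM with DMSO. Within mice its log2 difference was -0.76 in mouse a, -1.14 in mouse b and 1.16 in mouse c, and the estimate was -0.50 (SE 0.57). Acadsb, which acts on short branched chains from isoleucine, measured 53.8, 41.2 and 37.6 CPM with thiothixene and 41.0, 26.6 and 57.8 CPM with DMSO (0.079, SE 0.35), the exception above 0. The ratio of Acadl to Acadvl per kilobase was 4.47, 2.34 and 1.88 with thiothixene and 2.22, 1.57 and 5.38 with DMSO, so it varied as much within a treatment as between treatments.

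All 5 genes of the mitochondrial hydratase to thiolase steps had estimates below 0. Hadha (ENSMUSG00000025745.13) measured 110.0, 134 and 122 CPM with thiothixene and 138, 188 and 121 CPM with DMSO (estimate -0.29, SE 0.28). Hadhb (ENSMUSG00000059447.14) measured 80.5, 55.3 and 52.7 CPM with thiothixene and 67.0, 70.6 and 83.8 CPM with DMSO (-0.23, SE 0.29). The groups overlapped for both subunits. For this back-to-back pair, whose shared interval is printed above, the ratio per kilobase, Hadha over Hadhb, was 0.695, 1.24 and 1.18 with thiothixene and 1.05, 1.36 and 0.739 with DMSO. Thiothixene-a and DMSO-c gave the low values, and Hadha was the higher subunit in the other 4. A pseudogene, Gm13910, matches the Hadhb transcript at 99.8% identity over 1428 bases and held 41, 16 and 21 counts with thiothixene and 39, 6 and 30 counts with DMSO, so the split of reads between the 2 is uncertain.

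Echs1, the enoyl-CoA hydratase for short chains, measured 51.8, 62.8 and 59.5 CPM with thiothixene and 56.2, 96.7 and 40.4 CPM with DMSO, the DMSO values enclosing those with thiothixene (-0.15, SE 0.36). Hadh, the hydroxyacyl-CoA dehydrogenase for medium and short chains, measured 53.3, 50.4 and 38.8 CPM with thiothixene and 41.4, 67.2 and 34.8 CPM with DMSO (-0.008, SE 0.33), an estimate close to 0. Acaa2, the mitochondrial thiolase, measured 31.5, 25.2 and 34.8 CPM with thiothixene and 32.9, 69.8 and 28.1 CPM with DMSO. Its estimate of -0.51 (SE 0.40) depended on DMSO-b, and without that library it was 0.001.

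Auxiliary enzymes bring unsaturated chains into line with the main pathway. Eci2, an enoyl-CoA isomerase found in mitochondria and peroxisomes (ENSMUSG00000021417.16, chromosome 13, 34977748 to 35027096, minus strand), had the lowest estimate and the smallest unadjusted p of the 28 genes. It measured 32.5, 32.0 and 31.5 CPM with thiothixene and 35.6, 63.7 and 40.7 CPM with DMSO. The thiothixene libraries differed by little among themselves, and all lay below all DMSO libraries. The mean was 32.0 ± 0.508 CPM under thiothixene, against 46.7 ± 14.9 CPM under DMSO (SD, n = 3 each), and the estimate was -0.54 (SE 0.31, 95% interval -1.25 to 0.17). In edgeR's quasi-likelihood test it had an unadjusted p of 0.1173. The log2 difference was -0.13 in mouse a, -0.99 in mouse b and -0.37 in mouse c, and without DMSO-b the estimate was -0.25. Its relative Eci3, 91.8% identical over 891 bases, held between 0 and 11 counts per library. Gm16984, an antisense gene whose transcript matches that of Eci2 at 99.5% over 194 bases, held 618, 428 and 492 counts with thiothixene and 634, 408 and 649 counts with DMSO, and opposite-strand exons cover 3.41% of the exonic bases of Eci2. The strand setting is not given, so reads of Eci2 and Gm16984 in the shared stretch may not be separated.

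Eci1, the mitochondrial isomerase, measured 10.7, 15.4 and 13.9 CPM with thiothixene and 14.4, 34.8 and 7.81 CPM with DMSO (-0.51, SE 0.53). Ech1, a dienoyl-CoA isomerase, measured 46.4, 49.4 and 52.6 CPM with thiothixene and 51.0, 101 and 34.7 CPM with DMSO (-0.33, SE 0.40). In both genes DMSO-b was the highest and DMSO-c the lowest of the 6 libraries. Decr1, the mitochondrial dienoyl-CoA reductase, had 32.6, 25.3 and 25.4 CPM with thiothixene and 26.1, 43.3 and 33.2 CPM with DMSO (-0.30, SE 0.31). Decr2, its peroxisomal counterpart, had 28.8, 30.1 and 28.2 CPM with thiothixene and 27.8, 30.8 and 22.9 CPM with DMSO (0.096, SE 0.28). Its groups overlapped and differed by little.

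Electron transfer flavoprotein passes electrons from the acyl-CoA dehydrogenases to the respiratory chain. Etfa, its alpha subunit, measured 59.7, 66.0 and 63.3 CPM with thiothixene and 62.6, 85.4 and 47.1 CPM with DMSO (-0.044, SE 0.30). Etfdh, the oxidoreductase that hands the electrons to ubiquinone, measured 44.4, 43.4 and 30.7 CPM with thiothixene and 38.7, 39.5 and 44.2 CPM with DMSO (-0.048, SE 0.28). Neither gene separated the treatments. Etfb, the beta subunit that pairs with Etfa (ENSMUSG00000004610.5, chromosome 7, 43444083 to 43457800, plus strand), was listed at 0 in all 6 libraries. A count of 0 allows, from 3 counts, up to 0.142, 0.161 and 0.148 CPM in the thiothixene libraries and up to 0.134, 0.335 and 0.128 CPM in the DMSO libraries, for counting error only. In the annotation used here 58.25% of the exonic bases of Etfb are also exons of Gm45233 and Mir7051 on the same strand. Gm45233 matched the Etfb transcript at 99.7% identity over 626 bases and held 14, 10 and 8 counts with thiothixene and 8, 4 and 0 counts with DMSO. Reads that fell in more than 1 gene were set aside in the deposited tables and made up 1.675% to 3.024% of the counts listed per library. Their part in the 0 of Etfb was not tested, so the limit applies to reads assigned to the gene and not to its transcript.

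Among the peroxisomal genes 3 of 5 had estimates above 0. Abcd3, a transporter of the peroxisomal membrane, measured 94.7, 69.5 and 72.3 CPM with thiothixene and 67.6, 45.5 and 97.2 CPM with DMSO (0.17, SE 0.34). Acox3, an oxidase for branched chains, measured 87.2, 102 and 80.2 CPM with thiothixene and 113, 53.2 and 49.7 CPM with DMSO, and had the highest estimate of the 28 genes (0.32, SE 0.37, 95% interval -0.54 to 1.18). Without DMSO-a the estimate was 0.81, without DMSO-b 0.14 and without DMSO-c 0.11. Its 3 thiothixene values lay between the DMSO value of mouse a and those of mice b and c.

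The 2 bifunctional proteins of the peroxisome were present at very different levels. Hsd17b4, the D-bifunctional protein (ENSMUSG00000024507.7), measured 130.0, 113 and 98.6 CPM with thiothixene and 129, 138 and 159 CPM with DMSO (-0.32, SE 0.27, 95% interval -0.93 to 0.28). Ehhadh, the L-bifunctional protein and a known PPAR-alpha target in liver, had 41, 24 and 36 counts with thiothixene and 71, 9 and 14 counts with DMSO. These are 1.95, 1.29 and 1.78 CPM with thiothixene and 3.17, 1.01 and 0.597 CPM with DMSO, and the 95% interval, -1.66 to 1.77, was the widest of the 28 genes. Per kilobase of transcript, Hsd17b4 stood 74.1, 97.3 and 61.7 times above Ehhadh with thiothixene and 45.2, 153 and 296 times above it with DMSO.

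Acaa1a, the peroxisomal thiolase, measured 51.0, 85.1 and 91.2 CPM with thiothixene and 92.0, 187 and 43.0 CPM with DMSO. The DMSO group again held the highest and the lowest value, and the log2 difference was -0.85 in mouse a, -1.13 in mouse b and 1.08 in mouse c (estimate -0.50, SE 0.52). Acaa1b is 96.6% identical to it over 1428 bases and held between 0 and 10 counts per library, so the split of reads between the 2 genes is uncertain. Exons of Myd88 on the opposite strand cover 6.57% of the exonic bases of Acaa1a. Myd88, an adaptor of Toll-like receptors, was listed at 0 in all 6 libraries and was picked out after its values were seen. Acaa1a covers 11.26% of the exonic bases of Myd88. Slc22a14, a transporter gene on the strand of Myd88 in whose intron Myd88 lies, held 8560 counts in all. How reads were assigned at this locus was not tested, so the 0 of Myd88 applies to assigned reads and not to its transcript.

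The PPAR genes among the 30 were Ppara and Ppard. Ppara (ENSMUSG00000022383.14, chromosome 15, 85734983 to 85802819, plus strand) had 0 counts in all 6 libraries, with the same upper limits as Etfb, and in the annotation used here no exon of another gene overlaps its exons. Ppard measured 30.4, 46.1 and 39.9 CPM with thiothixene and 40.6, 38.2 and 24.1 CPM with DMSO, with overlapping groups (0.18, SE 0.32).

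On a scale that allows genes to be compared, CPM per kilobase of transcript, the genes covered a wide range. Etfa averaged 45.3 ± 2.27 with thiothixene and 46.7 ± 13.9 with DMSO (SD, n = 3 each), Acadl 44.0 ± 10.8 with thiothixene and 52.0 ± 7.67 with DMSO, and Acaa1a 43.0 ± 12.3 with thiothixene and 60.8 ± 41.5 with DMSO. The lowest levels among tested genes were those of Cpt2, at 7.67 ± 0.991 with thiothixene and 10.1 ± 1.78 with DMSO, of Acadsb, at 7.26 ± 1.40 with thiothixene and 6.87 ± 2.57 with DMSO, and of Ehhadh, at 0.560 ± 0.115 with thiothixene and 0.534 ± 0.464 with DMSO. In the plot of levels by library the values of neighbouring genes overlap, apart from those of Ehhadh, which lie below all others. The transcript lengths are those of 1 annotated transcript per gene, so the order depends on that choice.

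**Figure D2:**
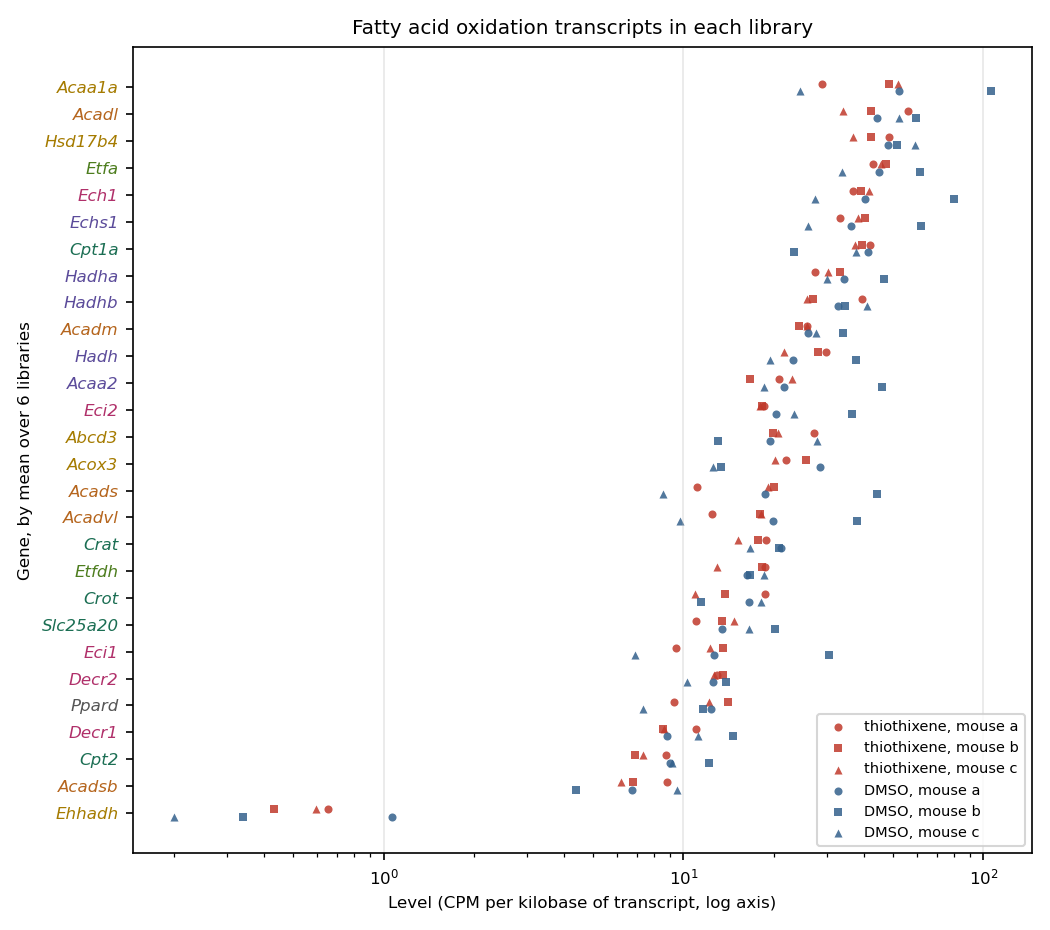
Level of each tested fatty acid oxidation gene in each library, as CPM per kilobase of transcript on a log axis (horizontal), for genes ordered by their mean over the 6 libraries (vertical, names coloured by role). Red marks are thiothixene and blue marks DMSO libraries, with a shape for each mouse. DMSO-b and DMSO-c often mark the ends of a gene's range, and Ehhadh lies below all other genes.

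Within mice the genes did not move together. In mouse a 17 of 28 genes were lower with thiothixene, with a median log2 difference of -0.065. In mouse b 20 of 28 were lower, with a median of -0.45, and in mouse c 14 of 28, with a median of 0.001. Over all tested genes these medians were -0.028, 0.014 and 0.051 in mice a, b and c. Cpt2, Slc25a20, Crat, Acadm and Eci2, 5 of the 28, were lower with thiothixene in all 3 mice, where 6.82% of all tested genes were. Higher in all 3 mice were 0 of 28, where 7.49% of all tested genes were. The other 23 differed in direction between mice. The lowest of the 3 medians was that of mouse b, whose library DMSO-b is among those that stand apart.

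**Figure D3:**
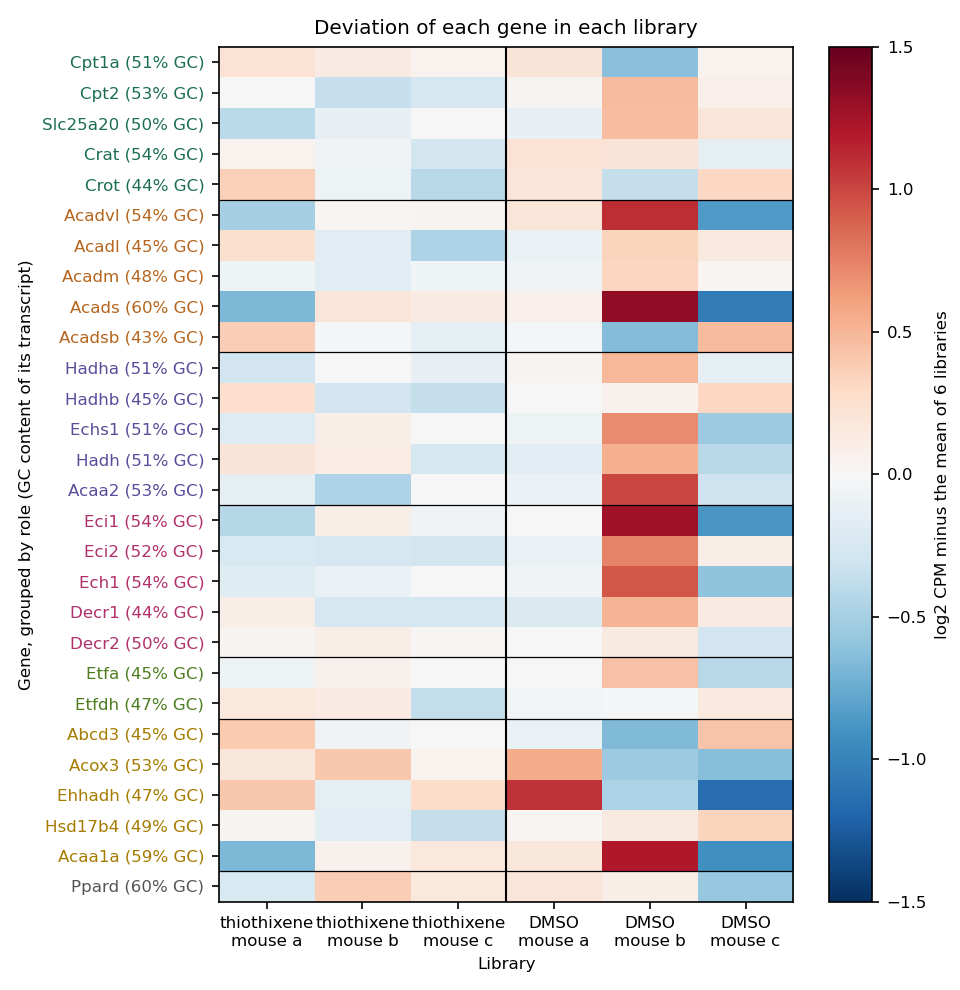
Deviation of each gene in each library (colour, log2 CPM minus the gene's mean over the 6 libraries), by library (horizontal, thiothixene on the left, DMSO on the right) and gene (vertical, grouped and coloured by role, with the GC content of its transcript). Deviations are strongest in DMSO-b, which is high for most genes, and in DMSO-c, and are small in thiothixene-b and thiothixene-c.

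Deviations from a gene's mean over the 6 libraries varied with the GC content of the transcript. Over the 28 genes, the correlation of deviation with GC content was -0.762, 0.374 and 0.49 in the thiothixene libraries and 0.141, 0.577 and -0.657 in the DMSO libraries. Over 14565 tested genes with a known transcript it had the same sign in each library, at -0.452, 0.296 and 0.358 with thiothixene and 0.151, 0.429 and -0.546 with DMSO. The points of a panel share a library, so these correlations are descriptions across genes. With log transcript length the deviations of the 28 genes correlated at 0.512, 0.197 and -0.061 in the thiothixene libraries and 0.338, -0.757 and 0.377 in the DMSO libraries.

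Splitting the genes at their median GC content of 50.57% shows where the scatter lay. The 14 GC-rich genes had median deviations of -0.20, 0.046 and -0.003 in the thiothixene libraries and 0.064, 0.64 and -0.49 in the DMSO libraries. For the 14 GC-poor genes the values were 0.13, -0.10 and -0.11 with thiothixene and -0.033, 0.13 and 0.15 with DMSO. The median log2 fold change was -0.37 for the GC-rich genes, of which 3 were above 0, and -0.12 for the GC-poor genes, of which 4 were above 0. Acads, Eci1, Acaa1a and Acadvl, the 4 genes whose deviations lay farthest apart between DMSO-b and DMSO-c, all belong to the GC-rich genes.

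**Figure D4:**
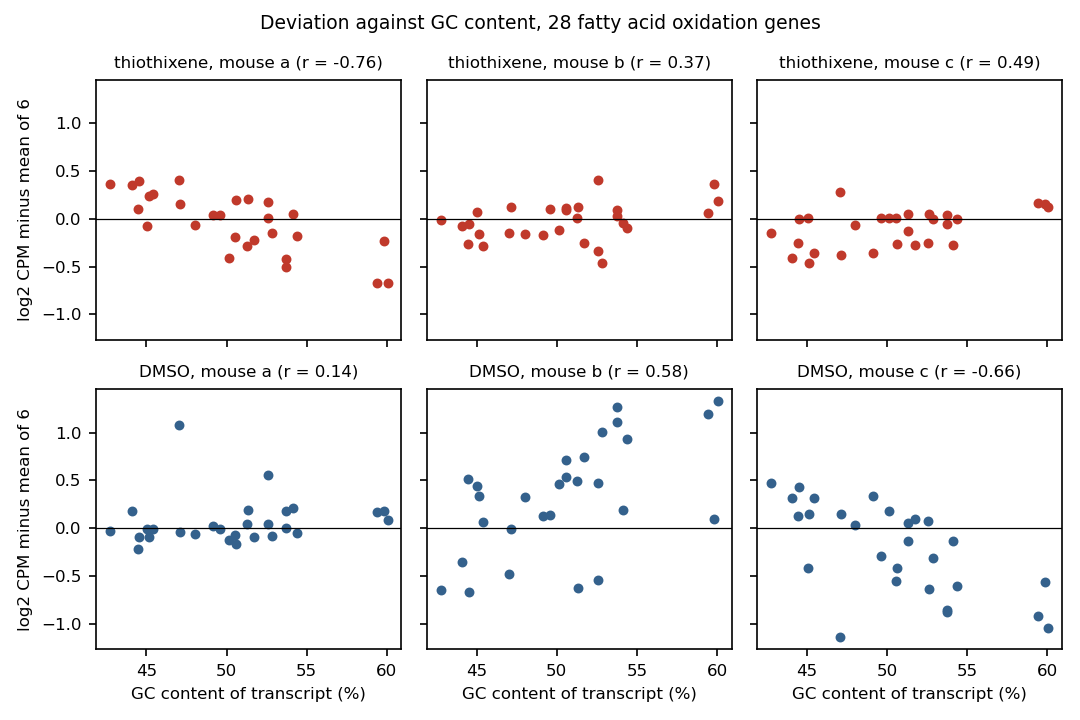
Deviation of each of 28 fatty acid oxidation genes (vertical, log2 CPM minus the mean of 6 libraries) against the GC content of its transcript in percent (horizontal), in a panel per library with thiothixene above and DMSO below. The points slope down in thiothixene-a (r = -0.76) and DMSO-c (r = -0.66) and up in DMSO-b (r = 0.58).

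With per-library offsets for GC content and transcript length, the SD of the deviations over the 28 genes was 0.179, 0.177 and 0.175 in the thiothixene libraries, against 0.31, 0.198 and 0.197 without offsets. It was 0.239, 0.35 and 0.364 in the DMSO libraries, against 0.252, 0.596 and 0.477 without offsets. The median log2 fold change was then -0.13 with 10 of 28 genes above 0, and 0 genes passed. The offsets left the median deviation of the 28 genes at 0.25 in DMSO-b, where it was 0.39 without them.

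Leaving out DMSO-b alone gave a median log2 fold change of -0.068, with 13 of 28 genes above 0. Without it the estimates nearer 0 included those of Hadha at -0.086, Acadm at -0.086, Decr1 at -0.096, Acadl at -0.14, Slc25a20 at -0.20 and Cpt2 at -0.25. Other estimates lay farther below 0 than with all libraries, among them Hsd17b4 at -0.341, Hadhb at -0.265 and Crot at -0.262. Without DMSO-b 12 of the 28 estimates changed sign, against 0 to 5 when another single library was left out. Above 0 instead of below were Acads at 0.303, Hadh at 0.316, Echs1 at 0.266, Eci1 at 0.261 and Ech1 at 0.206. So were Etfa at 0.201, Acaa1a at 0.17, Acadvl at 0.129 and Acaa2 at 0.001. Below 0 instead of above were Acadsb at -0.161, Ehhadh at -0.175 and Abcd3 at -0.065. Acadl was also -0.44 without thiothixene-a and -0.081 without thiothixene-c. Leaving out all 3 libraries that stand apart gave -0.056 with 10 of 28 above 0. In that comparison thiothixene-b and thiothixene-c are set against DMSO-a alone, so treatment and mouse cannot be told apart, and the lone library is assumed to vary like the others. The libraries were also chosen from these same data. The spread within a treatment came only from thiothixene-b and thiothixene-c, the pair with the highest correlation, 0.981. That comparison can therefore call too many genes, and its calls and adjusted p are no measure of a treatment effect. It called 1105 of 15807 genes, or 6.99%, and 0 of the 28. Crat had the smallest adjusted p there, 0.1009 in edgeR's quasi-likelihood test, at a log2 fold change of -0.36. The estimates of Cpt1a, Acox3 and Ehhadh, above 0 with all libraries, were -0.095, -0.31 and -1.04 without the 3 libraries. Those of Cpt2, Acadm and Eci2, the genes whose groups did not overlap, were -0.34, -0.053 and -0.16.

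The wider pathway was read from 7 lists of 97 genes, of which 83 were tested and 0 passed, with 39 above 0. Fabp4, a fatty acid binding protein of macrophages and adipocytes, was the single gene of these lists whose unadjusted p was under 0.05, at 0.04349 in edgeR's quasi-likelihood test with an adjusted p of 0.9998. It measured 171, 146 and 119 CPM with thiothixene and 34.8, 115 and 62.8 CPM with DMSO, at a log2 fold change of 1.04 (SE 0.44). All thiothixene libraries lay above all DMSO libraries for Fabp4, so for 1 of 13 tested genes of its list, where 3.88% of all tested genes did so. In its list, fatty acid uptake and activation, 6 of 13 tested genes were above 0, with a median of -0.004. Cd36, the scavenger receptor that takes up fatty acids, averaged 2542 ± 450 CPM with thiothixene and 1952 ± 856 CPM with DMSO (0.38, SE 0.36).

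Of the other enzymes of beta-oxidation 7 of 18 tested genes were above 0, with a median of -0.088. Acat1, the acetoacetyl-CoA thiolase, averaged 49.9 ± 2.55 CPM with thiothixene and 61.6 ± 5.87 CPM with DMSO (-0.31, SE 0.26). All its thiothixene libraries lay below all DMSO libraries, so for 1 of 18 genes, where 2.77% of all tested genes did so. Genes that set malonyl-CoA, the inhibitor of Cpt1a's enzyme, were above 0 for 3 of 10, with a median of -0.15. Among them Acaca, which makes malonyl-CoA, averaged 61.6 ± 0.622 CPM with thiothixene and 43.2 ± 19.3 CPM with DMSO (0.51, SE 0.38). All its thiothixene libraries lay above all DMSO libraries, so for 1 of 10 genes, where 3.88% of all tested genes did so. Stk11, a kinase upstream of AMPK, had -0.24 (SE 0.63).

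Partners and coregulators of the PPARs were above 0 for 8 of 10 tested genes, with a median of 0.19, where 45.3% of all tested genes were above 0. Their median deviation was -0.404 in DMSO-b and 0.098 to 0.245 in the other libraries, DMSO-a and DMSO-c included. With the offsets for GC content and length it was -0.106 in DMSO-b and -0.133 in DMSO-c. The most abundant gene of this list, the corepressor Ncor1, had 0.053 (SE 0.46). The coactivator Ppargc1b had 0.51 (SE 0.46) at 8.91 ± 1.48 CPM with thiothixene and 6.21 ± 2.91 CPM with DMSO. PPAR-responsive genes outside the oxidation enzymes were above 0 for 4 of 7 tested genes, with a median of 0.018. In that list the lipid droplet proteins Plin2 and Hilpda had 0.067 (SE 0.29) and 0.85 (SE 0.56), and Fgf21, Cyp4a10 and Cyp4a14 were among those with 0 counts in all libraries.

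Peroxisome biogenesis genes were above 0 for 8 of 17, with a median of -0.039. Catalase, Cat, averaged 550.1 ± 29.9 CPM with thiothixene and 456 ± 37.5 CPM with DMSO (0.27, SE 0.25), and Pex19, a chaperone of peroxisomal membrane proteins, 52.0 ± 3.02 CPM with thiothixene and 40.4 ± 8.71 CPM with DMSO (0.36, SE 0.29). For both, all thiothixene libraries lay above all DMSO libraries, so for 2 of 17 genes, where 3.88% of all tested genes did so. Of 8 genes for ketone bodies and propionyl-CoA 3 were above 0, with a median of -0.062. There Oxct1, which activates ketone bodies for oxidation, had 0.073 (SE 0.29), and Pccb, a subunit of propionyl-CoA carboxylase, had -0.39 (SE 0.32).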

How the data were processed

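The authors deposited raw counts per gene, in a table for each library that lists 56691 genes and ends with 5 summary rows. Those rows, with 43.07% to 44.35% of reads outside genes and 1.85% to 4.978% not aligned, stayed out of library sizes and tests. STAR 2.7.11b, Trim Galore 0.6.10, FastQC 0.11.8, DESeq2 1.44 and mm10 are named without roles, per the submitters' processing notes. Which program counted the reads, on which strand and with which annotation is not given in the sources used here. Groups came from the treatment label and mice from the titles, so the replicates are separate mice.

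Identifiers were matched without version to GENCODE M21 (GRCm38): 52073 matched and 4618 did not. The test was the robust quasi-likelihood test of edgeR 4.0.16 in R 4.3.3, after TMM scaling and the filterByExpr filter, with treatment alone in the model and Benjamini-Hochberg adjustment over all tested genes. SE was taken as the size of the log2 fold change over the root of the F statistic. CPM use TMM library sizes, and log2 CPM a prior count of 2. Length and GC content are those of a principal transcript per gene. Similar genes had at least 90% identity over at least 150 bases in BLAST 2.17.0. Limits for counts of 0 cover counting error only.

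The titles give each mouse a library per treatment, so the letters pair libraries by animal. Their deviations from the group means correlated at -0.131, 0.318 and -0.301 in mice a, b and c. Alternatives were the mouse as a block, RLE factors, 2 other filters, DESeq2 1.42.0, limma-voom (limma 3.58.1), GC and length offsets (splines with 5 degrees of freedom), and leaving out libraries. All 30 genes are named. From each other list, with no gene called, the gene of highest mean CPM and that of smallest p are named, and genes listed at 0 were added. Some genes that these lists hold are not reported here. The genes and lists were chosen with earlier results of these data known.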

Additional observations from a re-analysis of the deposited data

How the results depend on the processing

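The count of fatty acid oxidation genes called was 0 in all 15 alternatives. A replicate block for the mouse gave 0 called genes, 8 of 28 fatty acid oxidation genes above 0 and a median of -0.19 for them, so the block changed no call. Over all genes, 1 was called without a low-count filter, 2 by DESeq2 and 1105 without the 3 libraries that stand apart (636 higher, 469 lower), and 0 in the other alternatives. The calls without the 3 libraries carry the limits given above for that comparison and are no measure of a treatment effect. The median of the 28 log2 fold changes stayed below 0, between -0.28 and -0.056. Genes above 0 numbered 7 in the main test, 11 with offsets and the block, and 5 to 13 when a library was left out, with 13 without DMSO-b. Over 28 genes and 15 alternatives, 376 estimates kept their sign and 44 reversed it; none of these 44 had been called. The cause of the reversals was not tested. Hadh became 0.036 with the replicate block, 0.03 without a filter, 0.069 in limma-voom, 0.12 with offsets and 0.14 with offsets and the block. Etfa became 0.015 in limma-voom, 0.044 with offsets and 0.10 with offsets and the block, Etfdh 0.034 and 0.024 with offsets without and with the block, and Echs1 0.037 with both. Without the 3 libraries that stand apart, Cpt1a was -0.095, Acadsb -0.051, Acox3 -0.31 and Ehhadh -1.04, while Slc25a20 was 0.074, Acads 0.077, Echs1 0.13, Hadh 0.11, Eci1 0.024, Ech1 0.004 and Etfa 0.053. Leaving out each library in turn, the range was -0.31 to 0.086 for Crot, -0.83 to 0.13 for Acadvl, -0.90 to 0.30 for Acads, -0.16 to 0.39 for Acadsb, -0.39 to 0.27 for Echs1, -0.19 to 0.32 for Hadh, -0.74 to 0.001 for Acaa2, -0.88 to 0.26 for Eci1, -0.62 to 0.21 for Ech1, -0.012 to 0.20 for Decr2, -0.23 to 0.20 for Etfa, -0.13 to 0.11 for Etfdh, -0.065 to 0.48 for Abcd3, -0.36 to 1.08 for Ehhadh, -0.88 to 0.17 for Acaa1a and -0.022 to 0.33 for Ppard. Without a change of sign it was 0.006 to 0.39 for Cpt1a, 0.11 to 0.81 for Acox3, -0.29 to -0.090 for Crat, -0.44 to -0.11 for Hadhb, -0.42 to -0.086 for Hadha and -0.46 to -0.096 for Decr1. Nor did the sign change for Cpt2, at -0.505 to -0.249, Eci2, at -0.698 to -0.254, and Hsd17b4, at -0.421 to -0.22. The same held for Slc25a20, at -0.487 to -0.197, Acadl, at -0.441 to -0.081, and Acadm, at -0.277 to -0.086. DMSO-b, with 10472349 counts in genes, has the lowest depth, and Ehhadh had 9 counts there. The part of depth in the wide interval of Ehhadh was not tested.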
